A study of Mus musculus with 18 samples.

Results

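Interferon-stimulated genes are the genes that cells switch on when type I or type II interferon binds its receptor. They were followed here as a list of 46 named mouse genes, chosen by symbol with earlier results of these data known. Of these, 41 were read by an array row that belongs to 1 gene symbol, out of 19454 genes with such a row. Isg15, Gbp2, Igtp and Ifi47 were read only in rows shared with another gene and have no value here, and Ifi44 had no row. All 41 measured genes passed the filter on low signal and were among the 10258 genes tested. Ifnb1 passed only through the TTP-deficient (KO) group at 0 min, so the filter favoured a KO level above the WT level at 0 min for this gene.

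The cells were macrophages grown from C57Bl/6 bone marrow with M-CSF, either TTP-/- (KO) or wild type (WT). TTP, tristetraprolin, is a protein encoded by Zfp36 that binds AU-rich elements in mRNAs and speeds their decay. All 6 groups had received LPS for 3 h. They were then given actinomycin D to stop transcription, together with the p38 kinase inhibitor SB203580, and were harvested after 0, 45 or 90 min. KO and WT cells at each of the 3 times were represented by 3 arrays each, 18 in all. The question is which mRNAs decay in a TTP-dependent way. Transcription block and p38 inhibition ran for the same times, and no group lacked LPS, so the induction of these genes by LPS was not measured. The labels do not say how the TTP-/- allele was made or whether the arrays of a group came from separate animals or cultures. The p-values therefore measure the spread between these arrays, which may be technical.

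In macrophages, LPS binds TLR4 and, through the adaptor TRIF and the kinase TBK1, leads to transcription of Ifnb1, the gene of interferon beta. Secreted interferon beta acts back on the cells through the receptor chains IFNAR1 and IFNAR2 and the kinases JAK1 and TYK2. These activate the complex ISGF3, which holds STAT2 and IRF9 and binds interferon-stimulated response elements (ISREs) in the promoters of its target genes. Gamma-activated sites (GAS) are a second kind of promoter element, used above all in the response to interferon gamma. The products restrict viruses and intracellular bacteria, attract T cells and feed back on the pathway.

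The promoters of 5 members are shown because they carry the ISRE core to which ISGF3 binds and belong to genes whose level differed between the 2 runs of arrays, series A and series B, that the array titles form. Cxcl10, Eif2ak2, Ifit1 and Rsad2 were higher in series B, and Ifitm3 was the member that was lower there. They were picked after their values were seen. The sequences are those of RefSeq for build GRCm38.p6, 300 bases from 250 bases before to 50 after the start site, written 5′ to 3′ in the direction of the gene, with ISRE matches in capitals. They lie at chr5:92348840-92349139 on the minus strand for Cxcl10, chr17:78882523-78882822 on the minus strand for Eif2ak2, chr19:34640639-34640938 on the plus strand for Ifit1, chr7:141010695-141010994 on the minus strand for Ifitm3 and chr12:26456403-26456702 on the minus strand for Rsad2.
Cxcl10: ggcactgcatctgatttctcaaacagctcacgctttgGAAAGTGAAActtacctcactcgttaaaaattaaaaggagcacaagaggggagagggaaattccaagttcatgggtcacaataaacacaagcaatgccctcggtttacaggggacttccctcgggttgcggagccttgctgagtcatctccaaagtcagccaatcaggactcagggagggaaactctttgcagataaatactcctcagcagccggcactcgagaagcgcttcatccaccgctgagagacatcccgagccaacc
Eif2ak2: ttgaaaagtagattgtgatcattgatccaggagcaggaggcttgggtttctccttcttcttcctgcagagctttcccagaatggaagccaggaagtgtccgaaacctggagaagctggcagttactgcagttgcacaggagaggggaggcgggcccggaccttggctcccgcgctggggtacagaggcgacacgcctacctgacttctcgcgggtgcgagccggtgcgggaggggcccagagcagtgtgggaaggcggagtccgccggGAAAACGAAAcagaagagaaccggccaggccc
Ifit1: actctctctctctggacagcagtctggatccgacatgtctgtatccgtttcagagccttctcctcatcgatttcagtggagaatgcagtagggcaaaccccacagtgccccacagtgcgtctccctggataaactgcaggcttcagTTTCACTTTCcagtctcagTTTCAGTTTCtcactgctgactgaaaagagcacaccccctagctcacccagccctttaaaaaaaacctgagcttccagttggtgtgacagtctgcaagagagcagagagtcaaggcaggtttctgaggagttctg
Ifitm3: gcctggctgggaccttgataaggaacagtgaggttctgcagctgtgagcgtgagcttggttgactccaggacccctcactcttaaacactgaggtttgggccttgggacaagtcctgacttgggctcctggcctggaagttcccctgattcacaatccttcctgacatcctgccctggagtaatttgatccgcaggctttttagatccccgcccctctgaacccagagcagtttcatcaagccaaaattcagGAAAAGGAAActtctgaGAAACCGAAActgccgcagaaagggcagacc
Rsad2: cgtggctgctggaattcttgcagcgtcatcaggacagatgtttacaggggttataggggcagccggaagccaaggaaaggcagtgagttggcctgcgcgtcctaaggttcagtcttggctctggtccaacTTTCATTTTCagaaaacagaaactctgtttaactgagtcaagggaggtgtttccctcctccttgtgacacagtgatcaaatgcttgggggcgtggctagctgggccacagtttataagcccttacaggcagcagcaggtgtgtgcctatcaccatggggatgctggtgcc

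The ISRE core searched was GAAA, any 2 bases and GAAA again, on both strands, and the GAS was TTC, any 3 bases and GAA, which is its own reverse complement. Matches could overlap and were counted separately. Of the 41 measured members, 30 had a RefSeq promoter in the table used. At least 1 ISRE core was found in 16 of the 30 genes (53.3%), against 3.99% of the 27025 genes in the table. A GAS was found in 8 of the 30 (26.7%), against 9.55% of all genes. With the start site as position 0, the first base of the match lay at -213 in Cxcl10, at -104 and -85 in Ifit1 and at -120 in Rsad2. It lay at 18 in Eif2ak2 and at 2 and 19 in Ifitm3, where a GAS overlapped an ISRE match. A match describes the letters of the window and does not show that a factor bound there.

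By the numbers in their titles the arrays form 2 runs. Series A is the low-numbered run, with replicate 3 of each group (6 arrays), and series B is the high-numbered run, with replicates 1 and 2 (12 arrays). The labels do not say what the runs stand for. The interferon-stimulated genes separated the runs, so the difference between them is given first, and later results are also given within the runs where these differ. The comparison of the runs was added after the data had been seen.

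The arrays had median intensities of 7.41 to 8.19. The WT array of series A at 0 min (replicate 3) had the lowest median, the highest maximum (14337, against 7379 to 13545 on the others) and the largest median deviation of the housekeeping genes (0.28 on the log2 scale, next to 0.24 for the WT array of series A at 45 min). It is the only WT array of series A at 0 min, so it enters each value given below for series A at 0 min and for its changes in WT, and its part in them was not tested. Zfp36, the gene of TTP, read 6.25, 6.75 and 6.81 on the log2 scale in KO replicates 1, 2 and 3 at 0 min, against 7.95, 7.86 and 7.12 in WT. The difference was -1.04 ± 0.32 (SE, n = 3 each, limma adjusted p = 0.564), the groups did not overlap, and a signal remained in KO cells. At 45 and 90 min the KO values lay above the WT values, by 0.59 ± 0.32 and 0.87 ± 0.32. The labels do not say which part of the gene the allele lacks, so these signals do not check the genotype. Tnf, a known TTP target, had a decay difference at 90 min of 3.79 ± 0.26 (adjusted p = 3.76e-07), that is, its log2 change in KO minus its log2 change in WT. The mean signals of all 8 macrophage markers lay above the low-signal limit, a log2 intensity of 3.03. Those of all 6 neutrophil, 5 T and NK cell, 3 B cell and 1 erythroid markers measured lay below it. Siglech and Ccr9 of plasmacytoid and Flt3 and Xcr1 of conventional dendritic cells also lay below the limit. Itgax and Zbtb46 of conventional and Tcf4 and Bst2 of plasmacytoid dendritic cells lay above it, as did 3 of 5 stromal markers. Bst2 is also a member of the interferon-stimulated list.

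**Figure D1:**
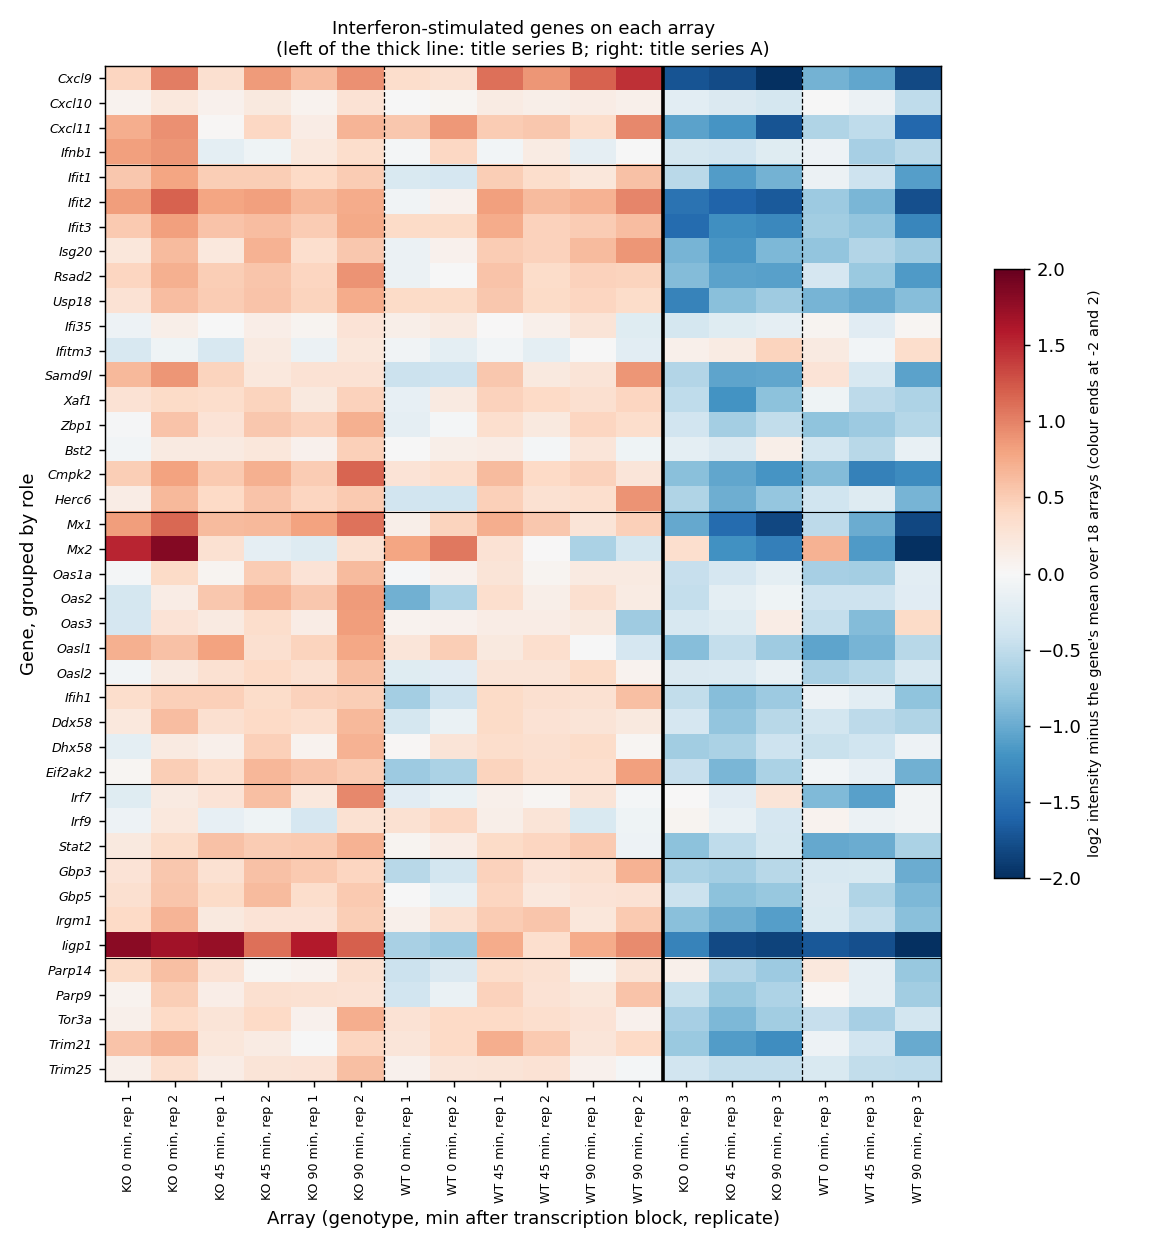
Log2 intensity of each of the 41 measured genes (rows, grouped by role) on each of the 18 arrays (columns), as the deviation from the gene's mean over all arrays; series B stands left of the thick line and series A right of it, with KO left of WT in each. Most rows are red in series B and blue in series A, while the first WT columns of series B, at 0 min, are paler than their neighbours.

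On each array the median deviation of the 41 genes from their own means was -0.02 to 0.60 in the 12 arrays of series B, against -0.81 to -0.37 in the 6 arrays of series A. The runs did not overlap in this value. Over all tested genes the same median ran from -0.08 to 0.05 in series B and from 0.00 to 0.10 in series A. With the 6 group means fitted, 37 of the 41 genes were higher in series B, 1 was lower and 3 did not pass (Oas3, Irf9 and Ifi35; limma, adjusted p below 0.05 over all genes). Of all tested genes, 26.1% passed in either direction and 9% were higher in series B. The median difference of the 41 genes, series B minus series A, was 0.93 on the log2 scale, against -0.08 over all genes. In 20 of the 41 genes every array of series B lay above every array of series A, and in 28 series B was higher in each of the 6 groups. The matching shares over all tested genes were not counted, so these counts do not show how unusual the members are. In WT at 0 min series B was the lower run for 8 of the 37 called genes: Samd9l (-0.70), Eif2ak2 (-0.62), Parp14 (-0.57), Ifih1 (-0.44), Oas2 (-0.38), Parp9 (-0.27), Ifit1 (-0.21) and Gbp3 (-0.14). A difference above a log2 of 1 was seen in 16 of the 41 genes and in 1.18% of all genes.

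The size of the step differed between genes. Iigp1, an immunity-related GTPase that attacks the vacuoles of intracellular pathogens, had log2 intensities with a lowest, median and highest value of 3.80, 5.56 and 6.35 in series B, against 2.49, 2.75 and 3.21 in series A. The difference was 2.62 ± 0.21 (adjusted p = 9.30e-08), and the runs did not overlap. No fold is given, since 5 of the 6 arrays of series A lay below the low-signal limit of 3.03. Iigp1 lies on chromosome 18 from 60373616 to 60392634.

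Among the chemokines, which attract activated T cells through the receptor CXCR3, Cxcl9 was higher in series B by 2.36 ± 0.17 and Cxcl11 by 1.66 ± 0.15. Cxcl10, the third ligand of that receptor, differed by only 0.37 ± 0.09 (adjusted p = 0.00362), or 1.29-fold. Its lowest, median and highest values were 12.03, 12.14 and 12.33 in series B and 11.52, 11.79 and 12.02 in series A. Ifnb1, the inducer, was higher by 0.57 ± 0.11 at a signal of 2.48 to 3.56 in series B and 2.01 to 2.58 in series A, mostly below the limit.

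The IFIT proteins act against viral RNA and its translation. Ifit2 was higher in series B by 2.04 ± 0.18, Ifit3 by 1.72 ± 0.12 and Ifit1 by 1.05 ± 0.16. Cmpk2, a mitochondrial nucleotide kinase, was higher by 1.63 ± 0.12, and its neighbour Rsad2, which encodes the antiviral enzyme viperin, by 1.31 ± 0.14. Usp18, the protease that removes ISG15 and restrains the interferon receptor, was higher by 1.41 ± 0.09, and Isg20, an exonuclease, by 1.27 ± 0.11. Samd9l, Xaf1, Zbp1, Herc6 and Bst2 were also higher, by 0.36 to 0.99. Ifitm3, which blocks virus entry at endosomes, was lower in series B by a log2 of -0.30 ± 0.09 (adjusted p = 0.0255). That call was lost after centring on housekeeping genes (adjusted p = 0.455) and after a second quantile normalization (adjusted p = 0.197).

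The dynamin-like GTPases Mx1 and Mx2 were higher in series B by 1.93 ± 0.17 and 1.17 ± 0.14. Of the OAS family, of enzymes that make the activator of RNase L and their relatives without that activity, Oasl1 was higher by 1.15 ± 0.13, Oas1a by 0.63 ± 0.10, Oasl2 by 0.56 ± 0.09 and Oas2 by 0.45 ± 0.13, while Oas3 gave 0.35 ± 0.17 (adjusted p = 0.156). The RNA sensors Ifih1 (MDA5) and Ddx58 (RIG-I) were both higher by 0.79, their relative Dhx58 (LGP2) by 0.67, and Eif2ak2 (PKR), the kinase that halts translation on double-stranded RNA, by 0.80 ± 0.19. Of the transcription factors, Stat2 was higher by 1.08 ± 0.10 and Irf7 by 0.50 ± 0.14, and Irf9 gave 0.13 ± 0.10 (adjusted p = 0.371). Among the other GTPases Irgm1, Gbp5 and Gbp3 were higher by 1.13, 0.95 and 0.87. The ubiquitin ligases Trim21 and Trim25 were higher by 1.15 and 0.65, Tor3a by 0.94, and the ADP-ribosyltransferases Parp9 and Parp14 by 0.67 and 0.49.

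**Figure D2:**
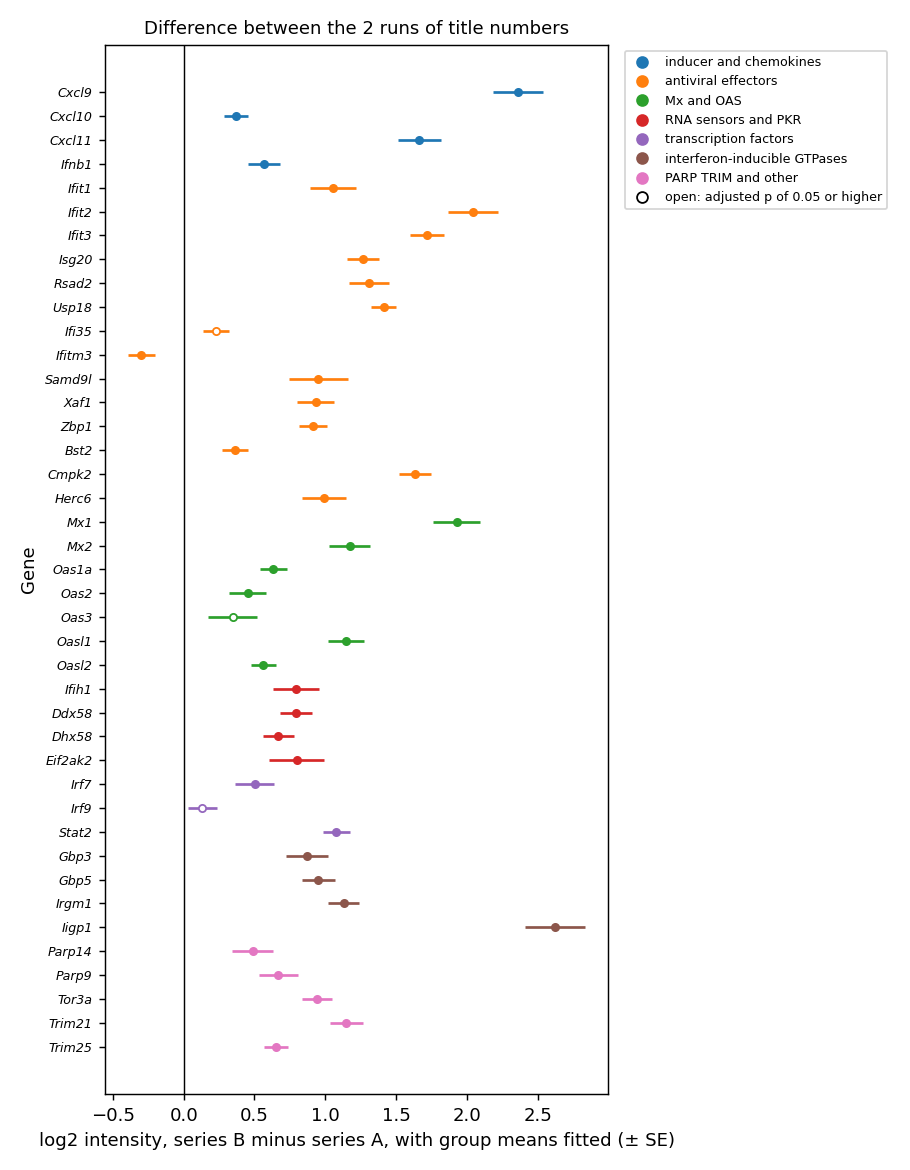
Log2 difference between series B and series A for each of the 41 genes (series B minus series A, group means fitted, bars ± SE), coloured by role, with open symbols for genes whose adjusted p was 0.05 or higher. Iigp1 and Cxcl9 lie farthest right at 2.62 and 2.36, and Ifitm3 is the filled point left of 0.

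Other genes of the pathway were read from 2 lists. Of 26 measured further interferon-induced genes, 20 were higher in series B, among them Gbp4 (1.92 ± 0.18), Pml (1.19 ± 0.13), Ddx60 (1.14 ± 0.19) and Daxx (1.10 ± 0.11), and Ly6e was lower. Of 19 measured genes of interferon receptors and signalling, 3 were higher (Irf1, Irf5 and Ikbke) and 7 lower, with Ifngr2 at -0.93 ± 0.08 and Ifnar1 at -0.64 ± 0.09. After centring on housekeeping genes, which moved the median of all genes by 0.20, the signalling list had 7 higher and 3 lower, while 40 of the 41 interferon-stimulated genes were higher. Of all tested genes, 21.2% were then higher in series B and 5.09% lower, against 9% and 17.1% before the centring. Of the 8 macrophage markers, Adgre1, Csf1r, Itgam and Lyz2 were lower in series B by 0.26 to 0.54 on the log2 scale, and Cd14 was higher by 0.25. After centring on housekeeping genes Itgam alone was lower, with Fcgr1 and Cd14 higher, and after a second quantile normalization Itgam and Lyz2 were lower and Cd14 higher. The call of Ly6e was also lost after that centring. The 8 macrophage intensities summed to 9358 to 11796 in series B and to 11334 to 13183 in series A. Their part in the step between the runs was not tested. In bulk RNA, fewer cells that express a gene and less RNA of it per cell cannot be told apart.

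No interferon-stimulated gene passed the threshold between KO and WT at 0 min without a block: 0 of 41 in limma, as 0% of all tested genes did. At an unadjusted p below 0.05 there were 0 of 41, against 7.57% of all genes. The median difference, KO minus WT, was 0.25 and 31 of the 41 values were positive, against a median of -0.001 and 49.9% positive over all genes. After centring on housekeeping genes, which lowered the median of all genes by 0.12 (a shift of -0.12), the median of the 41 was 0.12 with 25 positive. Parp14, with the lowest p, differed by 0.53 ± 0.31 (adjusted p = 0.703). No member's KO and WT arrays were fully separated, against 10.3% of all genes. By role, the median difference was 0.47 for the 4 RNA sensors (0.80 in series B, -0.32 in series A) and 0.38 for the 4 other GTPases (0.69, -0.23). It was 0.31 for the 7 Mx and OAS genes (0.31, 0.17) and 0.24 for the 14 antiviral effectors (0.37, -0.40). The 3 transcription factors had 0.19 (0.14, 0.20). The inducer and chemokines had 0.01 (0.26, -0.36), as did the PARP and TRIM group (0.30, -0.22). The values in brackets are those of series B and then series A.

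Iigp1 had the largest value among the 41 genes. Its log2 intensities at 0 min were 6.35, 6.22 and 3.21 in KO replicates 1, 2 and 3, against 3.89, 3.80 and 2.84 in WT. KO was above WT in each replicate, but the KO array of series A lay below the WT arrays of series B. The difference was 1.75 ± 1.10 without a block (adjusted p = 0.721). It passed with the replicate number as a block (1.75 ± 0.35, adjusted p = 0.0414) and with the title series as a block (adjusted p = 0.0322), where 0.312% and 0.351% of all genes passed. Within series B it was 2.44 ± 0.22 (adjusted p = 8.45e-05), and in series A, with values near the low-signal limit, it was 0.37.

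Within series B, with 2 arrays per group, 15 of the 41 genes were higher in KO than in WT at 0 min and none was lower, against 9.17% of all genes in either direction. They were Iigp1, Samd9l (1.19 ± 0.21), Ifit2 (1.01 ± 0.17), Ifit1 (0.98 ± 0.17), Ifih1 (0.96 ± 0.17), Eif2ak2 (0.95 ± 0.20), Gbp3 (0.87 ± 0.18), Parp14 (0.85 ± 0.17), Herc6 (0.78 ± 0.21), Mx2 (0.75 ± 0.22), Mx1 (0.72 ± 0.18), Oas2 (0.69 ± 0.20), Ifnb1 (0.67 ± 0.18), Ddx58 (0.65 ± 0.18) and Rsad2 (0.63 ± 0.18). The 15 count Ifnb1, which was tested only because its KO level at 0 min passed the filter. In series A only Iigp1 and Ddx58 of these 15 had the same sign. Over all tested genes, called or not, 43.6% had the same sign in both runs. Over the 41 genes the median was 0.35 with 35 positive in series B, and -0.22 with 11 positive in series A. These values by run were not centred on housekeeping genes. The median deviation of the housekeeping genes at 0 min was 0.07 on the KO and 0.28 on the WT array of series A. In series B it was -0.10 and -0.04 in KO, and -0.09 and -0.05 in WT. Of all genes, 49.4% were positive in series B and 46.2% in series A. A test of this difference between the runs, run because the split had been seen, called 5 genes (Iigp1, Samd9l, Ifit2, Ifit1 and Ifih1), against 1.78% of all genes. Series A gives 1 KO and 1 WT array to it, so the p-values rest on the spread between the arrays of series B, and both values of Iigp1 in series A lay near or below the low-signal limit.

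Eif2ak2 shows the pattern array by array. At 0 min it read 7.51, 7.96 and 7.0 in KO replicates 1, 2 and 3, against 6.74, 6.83 and 7.41 in WT. KO was above WT in both replicates of series B and below it in series A. Ifnb1 read 3.50, 3.56 and 2.33 in KO, against 2.64, 3.09 and 2.58 in WT, again with KO above WT in both replicates of series B and below it in series A. The KO value of series A and the WT values of replicates 1 and 3 lay below the low-signal limit. Cxcl10 read 12.10, 12.23 and 11.83 in KO, against 12.03, 12.07 and 12.02 in WT, a difference of 0.01 ± 0.20 with overlapping groups.

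At 45 and 90 min no member's KO and WT arrays were fully separated, against 12.8% and 9.72% of all genes. Without a block, 0 of 41 genes passed at 45 min (0.0195% of all genes) and 0 of 41 at 90 min (0.146%). At an unadjusted p below 0.05 there were 0 at either time, against 3.99% and 5.78% of all genes. With the replicate block the count was also 0 at 45 min (0.283%) and at 90 min (0.78%), as it was with the title series as a block (0.273% and 0.877%). Within series B the adjusted count was 0 at both times (0.322% and 0.994% of all genes), with 2 genes at 45 min and 9 at 90 min at an unadjusted p below 0.05, against 6.35% and 15.8% of all genes. Irf7, the factor that amplifies interferon production, had the lowest p of the 41 genes at both times, with differences of 0.53 ± 0.31 at 45 min and 0.43 ± 0.31 at 90 min (adjusted p = 1.00 and 0.911). Next came Irf9 at 45 min (-0.23 ± 0.18) and Oas3 at 90 min (0.42 ± 0.32). Pooled over the 3 times, 0 of 41 genes passed (1.33% of all genes). Arrays of the 3 times with the same replicate number may come from the same culture, so pooled p-values can be too small. Irf7 (0.45 ± 0.18, adjusted p = 0.295) and Oas2 (0.37 ± 0.16, adjusted p = 0.376) were the 2 genes at an unadjusted p below 0.05, against 11.6% of all genes. Iigp1 gave 0.92 pooled (adjusted p = 0.622) and passed with the replicate block (adjusted p = 0.0136, 4.64% of all genes) and with the title series as a block (adjusted p = 0.0107, 4.82%). Within series B, 6 genes passed pooled over times, all higher in KO (Iigp1, Oas2, Oasl1, Mx1, Ifit1 and Ifih1; 5.82% of all genes). Iigp1, Oas2 and Oasl1 had the same sign in series A, while Mx1 (-0.35), Ifit1 (-0.32) and Ifih1 (-0.32) were negative there. Over all genes 55.8% had the same sign in both runs.

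**Figure D3:**
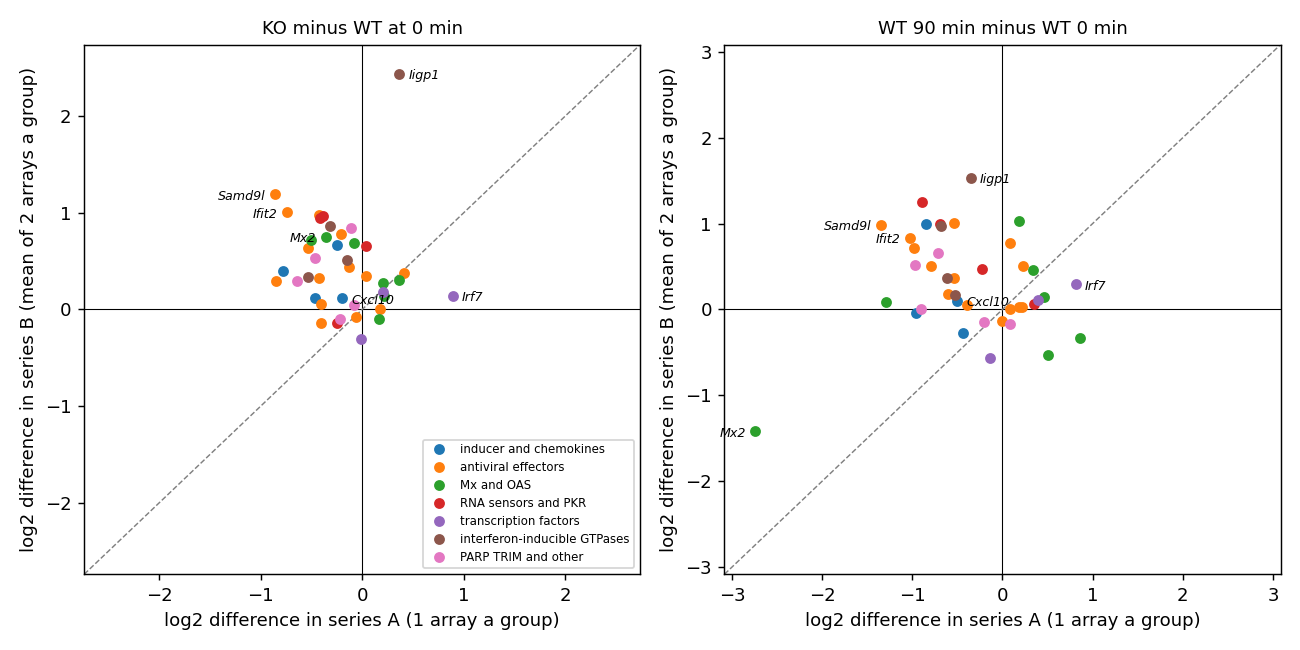
Log2 difference of each of the 41 genes in series A (horizontal axis, 1 array per group) and in series B (vertical axis, mean of 2 arrays per group) for KO minus WT at 0 min on the left and WT at 90 min minus WT at 0 min on the right; colours give the role and the dashed line marks equal values. On the left 35 genes lie above 0 in series B and 11 lie right of 0 in series A, and on the right Mx2 lies low in both runs, at -1.42 in series B and -2.74 in series A.

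After the block of transcription, the changes averaged over the 3 arrays were small for most of these mRNAs. RMA scales the arrays to each other, so values are relative and a loss shared by all mRNAs is not visible. The median change of the 41 genes at 90 min was 0.00 in KO and 0.08 in WT, and 39 genes in KO and 36 in WT had a change smaller in size than 0.5. The runs differed behind these averages. The KO median was 0.06 with 26 positive in series B and -0.17 with 16 positive in series A, and the WT median was 0.18 with 32 positive in series B and -0.44 with 14 positive in series A. Over all genes the positive shares were 56.4% and 46.8% in KO and 47.4% and 45.4% in WT, series B first. The WT median over all arrays turned to -0.03 after centring on housekeeping genes, which moved the median of all genes by -0.11. The medians by run are given without that centring. Cxcl10 was at -0.02 ± 0.20 in KO and -0.10 ± 0.20 in WT at 90 min, with overlapping groups. Without a block no member passed the threshold at 45 min in KO (0.0487% of all genes) or WT (0.127%), or at 90 min in KO (0.224%) or WT (1.23%). At an unadjusted p below 0.05 there were 2 genes at 45 min in KO, 2 at 45 min in WT, 2 at 90 min in KO and 3 at 90 min in WT, against 5.26%, 3.89%, 5.36% and 9.43% of all genes in the same order.

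Mx2 had the largest change of the 41 genes in both genotypes. It lies on chromosome 16 from 97536081 to 97560901 and encodes a GTPase related to Mx1. Both Mx genes carry disabling mutations in C57BL/6 mice, so the mRNA is read here and not a working protein. In KO replicates 1, 2 and 3 its log2 intensity was 8.10, 8.42 and 6.92 at 0 min, 6.88, 6.40 and 5.37 at 45 min, and 6.33, 6.88 and 5.22 at 90 min. In WT it was 7.38, 7.64 and 7.28 at 0 min, 6.87, 6.60 and 5.45 at 45 min, and 5.95, 6.22 and 4.54 at 90 min. In both genotypes the arrays at 45 and at 90 min all lay below those at 0 min. Separation of this kind, in either direction, was seen in 13.2% and 11.9% of all genes in KO at 45 and 90 min, and in 9.94% and 10.1% in WT.

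In KO, Mx2 was at -1.59 ± 0.52 at 45 min (adjusted p = 0.623) and -1.67 ± 0.52 at 90 min (adjusted p = 0.433), or 31.4% of its start. With the replicate number as a block both falls passed, with SE 0.24 and adjusted p = 0.0126 and 0.00564, where 0.253% and 0.556% of all genes passed. In WT it was at -1.13 ± 0.52 at 45 min (adjusted p = 0.997) and -1.86 ± 0.52 at 90 min (adjusted p = 0.115), or 27.6% of its start. The fall at 90 min in WT passed with the title series as a block (adjusted p = 1.09e-04, 2.93% of all genes) and with the replicate block (adjusted p = 2.43e-04, 2.89%), whereas that at 45 min passed with the title series as a block (adjusted p = 0.0485, 0.322%) but not with the replicate block (adjusted p = 0.0702). At 90 min the change in KO was -1.65 in series B and -1.70 in series A, and in WT -1.42 in series B and -2.74 in series A. The relative half-life computed from the changes at 90 min was 53.9 min in KO (95% confidence interval 41.6 to 76.7 with the title series as a block) and 48.4 min in WT (38.2 to 66.0). Without a block the intervals were 32.5 to 159 min in KO and 30.4 to 119 min in WT. These half-lives take a constant rate from 0 to 90 min, which was not tested. In KO the change was -1.59 by 45 min and -1.67 by 90 min, so most of the measured fall came before 45 min. Mx1 did not pass: its change at 90 min was -0.29 ± 0.81 in KO and -0.37 ± 0.81 in WT.

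Oas2 had changes of the opposite sign, which did not pass without a block. Its log2 intensities were 6.75, 7.25 and 6.61 at 0 min and 7.64, 7.94 and 7.01 at 90 min in KO replicates 1, 2 and 3, and 6.14, 6.48 and 6.69 at 0 min and 7.42, 7.27 and 6.87 at 90 min in WT. The WT groups did not overlap and the KO groups did. The change was 0.66 ± 0.28 in KO (adjusted p = 0.820) and 0.75 ± 0.28 in WT (adjusted p = 0.328). Irf7 also had separated groups at 90 min in both genotypes (0.50 ± 0.31 in KO, 0.47 ± 0.31 in WT), and Irf9 was separated downward in WT (-0.42 ± 0.18, adjusted p = 0.433). With Mx2 counted, 2 of the 41 genes were separated upward and 2 downward in WT at 90 min, against 10.1% of all genes in either direction. In KO at 90 min 1 was separated upward and 1 downward, against 11.9% of all genes. Separation was thus no more frequent among these genes than among all genes.

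Ifnb1 had an unadjusted p below 0.05 in KO at 45 min, with -0.67 ± 0.29 (adjusted p = 0.903). It was at 3.50, 3.56 and 2.33 in KO replicates 1, 2 and 3 at 0 min and at 2.48, 2.59 and 2.30 at 45 min. Within series B the fall was -1.0 ± 0.18 (adjusted p = 0.0275, 0.38% of all genes), ending below the low-signal limit. Ifnb1 entered the test only through its KO level at 0 min, so the filter favoured a fall from that level. Mx2 was the other member to pass there, and the only one in KO at 90 min (0.214%).

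In WT within series B, 8 genes rose at 45 min (2.5% of all genes in either direction): Iigp1 (1.23), Eif2ak2 (1.07), Oas2 (1.01), Ifih1 (0.90), Gbp3 (0.83), Ifit1 (0.74), Ifit2 (0.73) and Parp14 (0.68). Of these, Gbp3 alone had the same sign in series A, at 0.0074, while 44.4% of all genes had the same sign in both runs. At 90 min 12 genes rose and Mx2 fell (13.4% of all genes). At 90 min the 12 were Iigp1 (1.53 ± 0.22), Eif2ak2 (1.25 ± 0.20), Oas2 (1.03 ± 0.20), Herc6 (1.00 ± 0.21), Ifih1, Cxcl9, Samd9l, Gbp3, Ifit2, Isg20, Ifit1 and Parp9. Of the 13 genes called, Isg20, Mx2 and Oas2 had the same sign in series A, while 36.5% of all genes had the same sign in both runs. The test of the difference between the runs, with 1 WT array of series A at each time and the spread of series B alone, called 17 of the 41 genes, 16 with the higher change in series B and Oasl1 with the lower, against 18.4% of all genes. These changes and the KO minus WT difference at 0 min use the same WT arrays at 0 min. In series B the median deviation of the 41 genes on the WT arrays at 0 min was -0.02 and 0.08, against 0.27 to 0.60 on the other 10 arrays. In series A it was -0.37 on the WT array at 0 min, against -0.81 to -0.51 on the other 5. The housekeeping genes had a median deviation of 0.28 on that WT array, against -0.01 to 0.24 on the other 5. Their deviation was not subtracted from the values of the 41 genes.

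**Figure D4:**
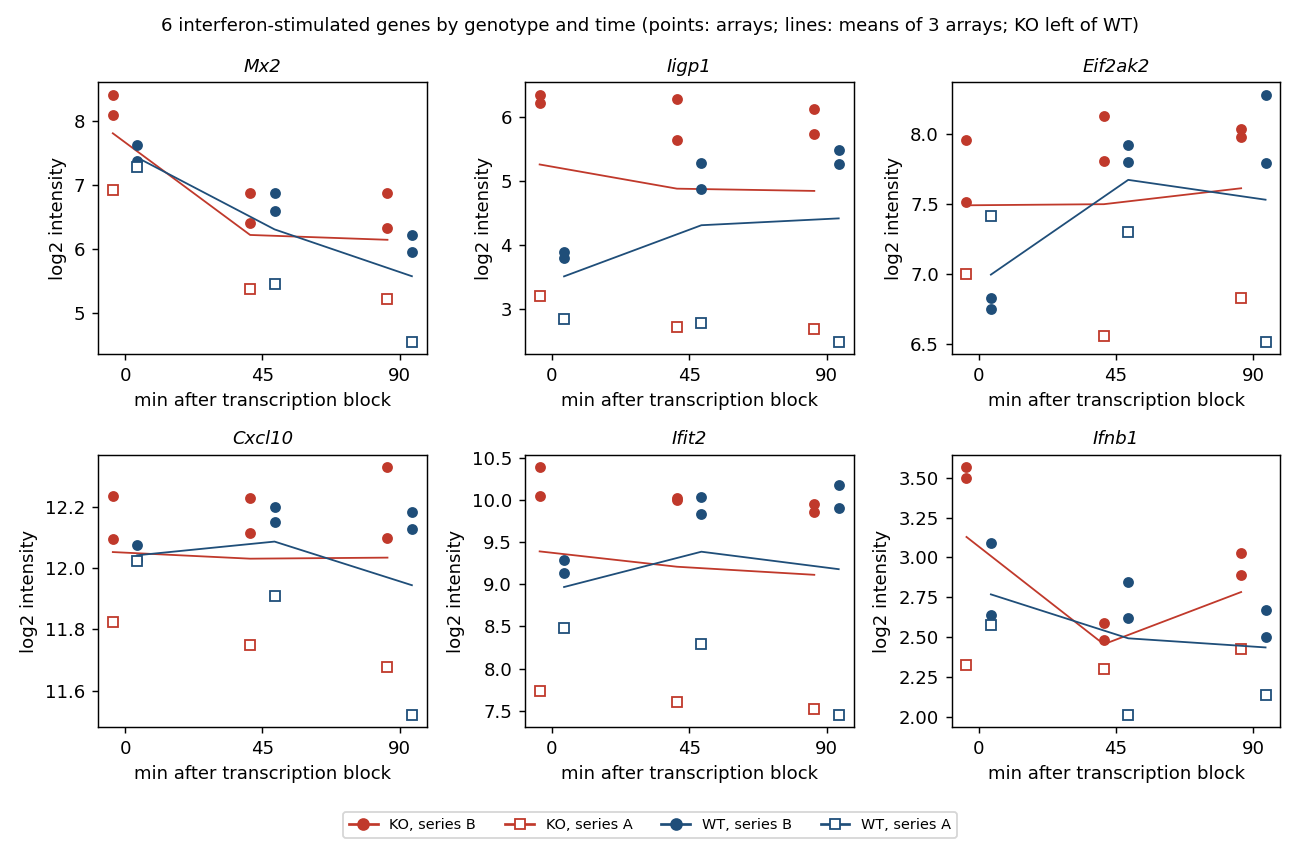
Log2 intensity of Mx2, Iigp1, Eif2ak2, Cxcl10, Ifit2 and Ifnb1 on each array against time after the transcription block (KO in red, left; WT in blue, right), with filled circles for series B, open squares for series A and lines through the means of 3 arrays. Mx2 falls in both genotypes, Cxcl10 stays between 11.52 and 12.33, and the WT circles at 0 min lie low for Iigp1, Eif2ak2 and Ifit2.

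The decay difference, the log2 change in KO minus that in WT, passed for 0 of the 41 genes at 45 min (0.00975% of all genes) and for 0 at 90 min (0.0195%). At an unadjusted p below 0.05 there were 0 at either time, against 1.82% and 2.67% of all genes. With either block the count was 0 at both times (0.00975% of all genes at 45 min, 0.0292% at 90 min). Within series B it was 0 at 45 min, with 18 genes negative at an unadjusted p below 0.05, against 10.5% of all genes. At 45 min Parp14 (-0.77 ± 0.43) and Ifih1 (-0.68 ± 0.59) had the lowest p. The median of the 41 genes at 45 min was -0.32 with 11 positive, or -0.18 after centring on housekeeping genes, which moved the median of all genes by 0.14. Without that centring the median at 45 min was -0.36 with 9 positive in series B and 0.02 with 21 positive in series A. Over all genes 49.7% were positive at 45 min, with 48.4% in series B and 51.6% in series A. At 90 min the median of the 41 was -0.08 with 18 positive, against 0.04 and 56.4% positive over all genes, and it turned to 0.03 after centring on housekeeping genes, which moved the median of all genes by 0.11. Without that centring the median at 90 min was -0.23 with 14 positive in series B and 0.23 with 30 positive in series A. The sign was the same in both runs for 11 of the 41 genes. Over all genes 52.7% were positive in series B and 53.1% in series A, and only 36.6% had the same sign in both runs. Mx2 had a decay difference of 0.19 with a 95% confidence interval of -1.37 to 1.75, or of -0.51 to 0.89 with the title series as a block. Cxcl10 had 0.08 (-0.52 to 0.68) and Ifnb1 -0.01 (-0.88 to 0.86). For comparison, the value for Tnf was 3.79. At 90 min Parp14 (-0.50 ± 0.43) and Ifi35 (0.25 ± 0.25) had the lowest p, both with an adjusted p of 0.999.

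Iigp1 had the largest decay difference in size, -1.32 at 90 min with an interval of -4.59 to 1.95. Within series B it was -1.89 ± 0.31 (adjusted p = 0.0404, 0.0682% of all genes), and in series A -0.17. Its KO arrays of series B were at 6.35 and 6.22 at 0 min and 6.12 and 5.73 at 90 min, and its WT arrays at 3.89 and 3.80 at 0 min and 5.27 and 5.49 at 90 min. The KO values were thus higher than the WT values at each time in series B, and the difference was 2.44 at 0 min and 0.55 at 90 min. Within series B, 12 genes had a negative and 1 a positive decay difference at 90 min with an unadjusted p below 0.05, against 9.15% and 11.2% of all genes.

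The wider pathway gave few calls between groups. Of the 19 signalling genes, Irf1 and Socs1 fell in WT at 90 min, with log2 changes of -2.56 ± 0.57 (adjusted p = 0.0304) and -1.47 ± 0.31 (adjusted p = 0.0232). In that comparison 1.23% of all genes passed. Irf1 is an interferon-induced transcription factor, and Socs1 encodes an inhibitor of JAK kinases. In KO their changes were -1.85 ± 0.57 (adjusted p = 0.411) and -1.0 ± 0.31 (adjusted p = 0.435), and their decay differences of 0.71 ± 0.80 and 0.47 ± 0.44 did not pass. Of the 26 further interferon-induced genes, Slfn1 was higher in KO pooled over the 3 times by 1.07 ± 0.23 (limma adjusted p = 0.0276, 1.33% of all genes). The 3 times of a replicate number may share a culture, so this p can be too small. Between KO and WT at 0 min and in the decay difference at 90 min, 0 of these 45 genes passed in limma (0% and 0.0195% of all genes). At an unadjusted p below 0.05 there was 1 signalling gene in each comparison and 1 further interferon-induced gene at 0 min. Of all genes, 7.57% and 2.67% lay below it in the same order.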

How the data were processed

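Gene-level Affymetrix arrays measured the RNA of LPS-treated macrophages on 18 arrays, in 6 groups of 3. Each deposited value is a linear-scale intensity from RMA, and the submitters' processing notes also name Affymetrix Expression Console, with versions not given in the sources used here. RMA corrects background and scales the arrays to each other. The number of arrays limits the precision.

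Of 25138 rows, 21039 carried 1 gene symbol, 1485 several and 2614 were not listed in the annotation. The brightest row was kept per symbol (19454 genes, 84 under an older symbol), and values were taken as log2 without an offset. A gene was tested if its brightest group averaged at least the median row's mean, 3.03 on the log2 scale or an intensity of 8.16 (10258 genes). Differences came from limma 3.58.1 in R 4.3.3, with 6 group means over all 18 arrays, no block, and Benjamini-Hochberg adjustment at 0.05 over all tested genes. Arrays of a group correlated at 0.971 to 0.995. The procedure was tested on simulated data.

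The 46 members and the other lists were chosen with earlier results of these data known. All members are accounted for; per comparison, those past the threshold are named, or otherwise the 2 with the lowest p, and Ifnb1 and Cxcl10 always. The difference between the title series, and the tests of whether a contrast differed between them, were added after the data had been seen. Alternatives were the replicate number or title series as a block, series B alone, the groups compared alone, other filters, an offset of 16, other scalings, the mean of a gene's rows, a trended robust prior and omission of each array.

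The replicate numbers come from the labels. Deviations from group means correlated above 0.1 in every same-numbered pair for KO minus WT at 0 min (0.156 to 0.369), 45 min (0.197 to 0.527) and 90 min (0.183 to 0.651), and for the change at 45 min in KO (0.321 to 0.677) and WT (0.333 to 0.550) and at 90 min in KO (0.413 to 0.694). They did not for the change at 90 min in WT (lowest -0.287) or, in consequence, for the decay difference at 90 min and the pooled comparison. The decay difference at 45 min also fell short, with a lowest correlation of 0.0179.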

Additional observations from a re-analysis of the deposited data

Results flagged for a closer look

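For 5 interferon-stimulated genes the KO minus WT difference at 0 min differed between the 2 title series in a limma test that was run because the split had been seen (adjusted p = 0.0234 to 0.0355). The value in series B minus that in series A was 2.07 for Iigp1, 2.05 for Samd9l, 1.75 for Ifit2, 1.41 for Ifit1 and 1.35 for Ifih1 on the log2 scale. For 17 genes the change in WT at 90 min differed in the same test (adjusted p = 0.0044 to 0.0493). It was higher in series B by 2.34 for Samd9l, 2.15 for Eif2ak2, 1.88 for Iigp1, 1.86 for Ifit2, 1.84 for Cxcl9, 1.71 for Ifit1, 1.69 for Ifih1 and 1.65 for Gbp3. It was also higher by 1.54 for Herc6, 1.48 for Parp14, 1.38 for Mx1, 1.36 for Parp9, 1.32 for Mx2, 1.30 for Rsad2, 0.98 for Gbp5 and 0.90 for Xaf1, and it was lower for Oasl1, with -1.04. Series A holds 1 array per group and gives no spread of its own, so these p-values rest on the arrays of series B. Of all genes, 1.78% passed for KO minus WT at 0 min and 18.4% for the change in WT at 90 min. Most arrays of series A read Iigp1 below the low-signal limit. The WT arrays at 0 min enter both sets of values, and the cause was not tested. The same limma test called 0 of the 41 genes for KO minus WT at 90 min and for the change at 90 min in KO. It also called 0 for the decay difference at 90 min. Of all genes, 0% passed in each of these comparisons.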

How the results depend on the processing

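Without a block, no member was called in any of the 10 comparisons, and none was called when any 1 array was left out (0 to 0). With the replicate number as a block, 1 member was called for KO minus WT at 0 min (Iigp1) and 1 pooled over times (Iigp1). Mx2 was the 1 member called for KO at 45 min, KO at 90 min and WT at 90 min. That block changed no other call. Of all genes, 0.312%, 4.64%, 0.253%, 0.556% and 2.89% passed in these comparisons, in the same order. With the title series as a block the counts were also 1 in each of these comparisons and 1 for WT at 45 min (Mx2). Of all genes, 0.351%, 4.82%, 0.273%, 0.595%, 2.93% and 0.322% then passed, in the same order. Within series B the counts were 15 for KO minus WT at 0 min (9.17% of all genes) and 6 pooled (5.82%). For KO they were 2 at 45 min (0.38%) and 1 at 90 min (0.214%). For WT they were 8 at 45 min (2.5%) and 13 at 90 min (13.4%). The decay difference at 90 min had 1 (0.0682%). For WT at 90 min, the pooled comparison and the decay differences the replicate numbers did not pair the arrays. The difference between the title series called 38 members, and 35 to 40 when 1 array was left out. With all arrays, 26.1% of all genes passed. Without 1 array, Iigp1 at 0 min ranged from 1.20 to 2.77. Over all values and alternatives, 1463 kept their call or size, 67 moved and 26 came to pass the threshold, and the cause was not tested. Ifnb1 could not be tested under the stricter filter on low signal. Signal near background limits Ifnb1 and, in series A, Iigp1.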
